A study of Mus musculus with 4 samples.

Results

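The genes of antigen presentation by the major histocompatibility complex (MHC) class II were examined in cartilage of young and adult mice with and without injury. They are the rows of the gene table whose symbol is H2-Aa, H2-Ab1, H2-Eb1, Cd74, Ciita, H2-DMa or H2-DMb1. Each symbol was found once, which gives 7 of the 24532 genes listed, and all 7 were among the 18181 genes above 0 in at least 1 library. RNA sequencing had been done on dissected knee cartilage of wild type C57BL/6 mice in 4 groups, which cross age (young or adult) with surgery (sham or injury). Young mice were 3 weeks old. Adult mice were 10 weeks old in the study's methods, 12 weeks old in the sample titles and 14 weeks old in the age field. The injured groups had received a full-thickness needle injury of the patellar groove 3 days earlier by the study's account, whereas the titles name DMM (destabilization of the medial meniscus) surgery, and the adult sham label spans days 3 to 14. Each group was 1 library made from a pool of 10 injured or 5 uninjured mice. By the study's account, some tissue other than cartilage in the dissected pieces could not be avoided. No difference below has a replicate check, no p-value or standard deviation can be given, and a difference between 2 libraries is not a tested difference between conditions.

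MHC class II molecules display peptides from taken-up proteins to CD4+ T cells. An alpha and a beta chain pair in the endoplasmic reticulum around the invariant chain Cd74, travel to endosomes where proteases degrade Cd74, and receive an antigen peptide with the help of the DM molecule. Macrophages, dendritic cells and B cells make these genes, and other cells can be induced to make them by interferon gamma (IFN-γ) through the coactivator Ciita. H2-Aa and H2-Ab1 encode the chains of the A molecule, and H2-Eb1 the beta chain of the E molecule. C57BL/6 mice lack a functional E alpha chain, which the table lists as the pseudogene H2-Ea-ps. H2-DMa and H2-DMb1 encode the chains of DM.

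The A, E and DM genes lie together on chromosome 17 (all positions on GRCm38.p6, the assembly of mm10). H2-DMa occupies 34119693 to 34139101, H2-DMb1 34153191 to 34160229, H2-Ab1 34263227 to 34269418, H2-Aa 34282744 to 34287823 on the minus strand and H2-Eb1 34305867 to 34316674. Ciita does not bind DNA itself but joins proteins on an X box, read by the RFX complex, and a Y box, read by NF-Y, ahead of class II genes. RefSeq windows of 300 bases around the transcription start were at hand for 4 of the 7 members, H2-Aa, H2-Eb1, H2-DMb1 and H2-DMa. They were searched on both strands for an X core written as CTNGNNAC and a Y core written as ATTGG, with their starts 30 to 42 bases apart in the same orientation. The pair was found in the windows of H2-Aa, H2-Eb1 and H2-DMb1. These stretches are shown, with both cores in capitals, because both cores stand at a similar place ahead of the start in these 3 members.

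H2-Aa: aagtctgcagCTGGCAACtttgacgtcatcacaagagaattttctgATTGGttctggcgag
H2-Eb1: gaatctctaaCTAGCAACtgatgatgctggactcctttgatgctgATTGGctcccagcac
H2-DMb1: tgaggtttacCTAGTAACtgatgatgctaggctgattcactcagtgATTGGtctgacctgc
H2-Ob: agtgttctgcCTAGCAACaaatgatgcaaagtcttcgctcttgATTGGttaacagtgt

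The H2-Aa stretch is chr17:34287857-34287917 on the minus strand, and those of H2-Eb1 and H2-DMb1 are chr17:34305763-34305822 and chr17:34153084-34153144 on the plus strand. H2-Ob, which is not a member, is shown at chr17:34238805-34238862 as another class II gene with the same pair. The windows of the non-members H2-Oa, H2-DMb2 and H2-Eb2 did not hold it. The X core started 84 bases before the annotated start in H2-Aa, 94 in H2-Eb1 and 97 in H2-DMb1, and the distance between the core starts was 36, 35 and 36 bases. All lie upstream of the RefSeq start of their gene. GENCODE starts the H2-DMb1 transcript further upstream, at 34153072, so that by that annotation the stretch lies within the first exon. Each core alone is common, with CTNGNNAC in 41.4% and ATTGG in 37.4% of 32851 promoter windows of the genome, and the pair stood in 205 windows (0.624%). Neither of the 2 windows of H2-DMa held the pair. Of the motifs bound by factors downstream of interferons, the GAS letters TTCNNNGAA, present in 8.30% of all windows, and a GAAA repeat with 2 bases between, present in 3.44%, were in none of the 5 windows of the 4 members. Such a match is a description of letters in a short window and not a site.

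**Figure D1:**
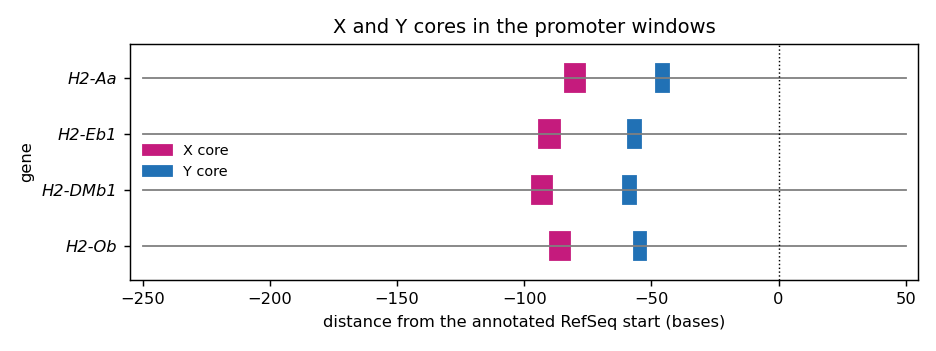
Position of the X core (CTNGNNAC) and the Y core (ATTGG) in the promoter windows of 3 members and of H2-Ob, in bases from the annotated RefSeq start (dotted line); grey lines span the window. The X core starts between 84 and 97 bases before the start in all 4 genes, and the Y core follows 33 to 36 bases later.

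Levels are given as FPKM, the fragment number that the authors deposited after scaling it to transcript length and to the library's mapped fragments, so that levels of different genes can be set side by side. Where a pair of levels is given for an age, sham comes before injured, and of 4 levels in a row the young pair comes first. In all 4 libraries the order began with Cd74 and ended with H2-DMa and Ciita. The A chain H2-Aa was at 10.6 and 53.6 FPKM in young and 19.9 and 94.5 FPKM in adult cartilage. Its partner H2-Ab1 was at 11.4 and 39.9 FPKM in young and 26.1 and 96.9 FPKM in adult cartilage. For both chains each injured library was above both sham libraries, and the adult library was above the young library of the same surgery. H2-Aa stood at 0.931 and 1.34 of H2-Ab1 in young and 0.763 and 0.975 in adult cartilage, so the 2 chains of the A molecule were of similar level in every library. H2-Eb1 was at 6.29, 30.3, 12.6 and 53.3 FPKM, between 0.481 and 0.759 of H2-Ab1, and kept the same order of libraries. The pseudogene H2-Ea-ps was between 0.674 and 2.12 FPKM.

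Cd74, the invariant chain, lies on chromosome 18 (60803849 to 60812652). It was at 28.8 and 76.3 FPKM in young and 26.5 and 139 FPKM in adult cartilage. Of the members other than Ciita, it was the one not higher in adult than in young sham, at a log2 ratio of −0.12 that was 0.26 and 0.13 after median-of-ratios scaling and quantile normalization. The ratio of Cd74 to H2-Ab1 was 2.52 in young sham and 1.01 in adult sham, and 1.91 and 1.44 in the young and adult injured libraries. The DM chain H2-DMa was at 2.57 and 6.68 FPKM in young and 3.32 and 8.89 FPKM in adult cartilage. H2-DMb1 was at 6.70 and 13.3 FPKM in young and 13.6 and 22.2 FPKM in adult cartilage. H2-DMb1 was the member whose adult sham level lay slightly above its young injured level. Both DM chains were higher in the injured library at each age, but H2-DMa stayed between 0.244 and 0.502 of H2-DMb1. H2-DMb1 shares 31.4% of its 31-base words with its neighbour H2-DMb2, so that part of the reads of the 2 genes may have been split between them. H2-DMb2 was at 2.37, 4.57, 3.81 and 4.66 FPKM. The other members share at most 1.41% of their words with another gene.

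Ciita, the coactivator of class II transcription, lies on chromosome 16 (10480014 to 10531064). It was the lowest member, at 0.223 and 0.559 FPKM in young and 0.131 and 0.741 FPKM in adult cartilage. Both injured libraries were above both sham libraries, at 2.51 times the sham level in young and 5.66 times in adult cartilage. All 4 values are below 1 FPKM and have no counting interval. The table gives 1 value over 5 Ciita transcripts, so the promoters by which myeloid cells, B cells and IFN-γ treated cells transcribe this gene cannot be told apart. Exons of Ciita and H2-DMa overlap genes of the other strand, Dexi over 329 bases and Brd2 over 360 bases, and the sources used here do not say whether strand was used in counting.

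**Figure D2:**
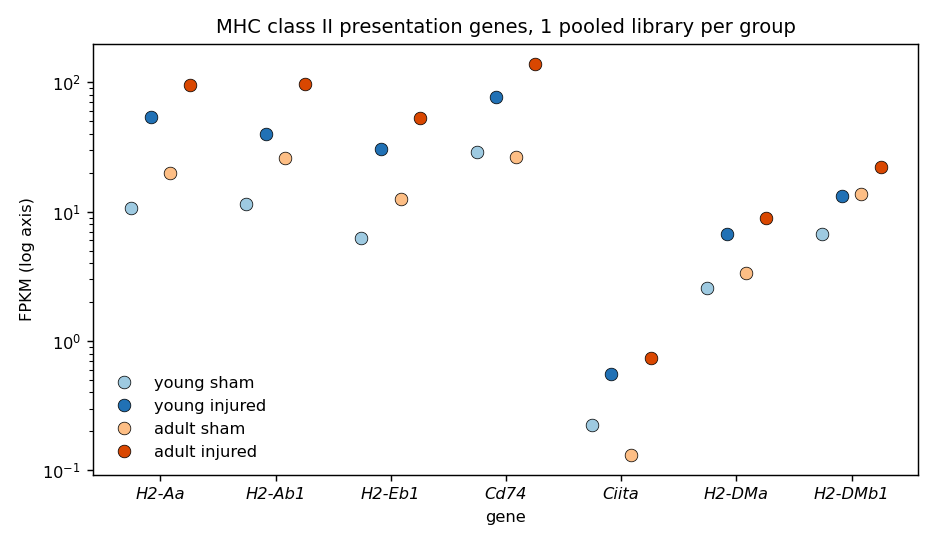
FPKM (log axis) of the 7 members in the 4 libraries, each point 1 pooled library. The adult injured library is the highest for every gene, from 0.741 FPKM for Ciita to 139 for Cd74, and the sham libraries are the lowest except for H2-DMb1.

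To ask how injury changed these genes at each age, log2 ratios of FPKM + 1 were calculated between the injured and the sham library. After injury in young cartilage the ratio was above 0 for all 7 members, with a median of 1.37 and a range of 0.35 to 2.23. The median of all 18181 genes was 0.00, and 8623 of them were above 0. H2-Aa (2.23), H2-Eb1 (2.1), H2-Ab1 (1.72), Cd74 (1.37) and H2-DMa (1.11) were at least 2-fold higher, that is 5 of 7, where 4.57% of all genes were. H2-DMb1 (0.89) and Ciita (0.35) were under that threshold on this scale, which understates the change of genes near 1 FPKM. The ratio of H2-Aa was reached or passed by 0.924% of all genes and that of H2-Eb1 by 1.01%.

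In adult cartilage all 7 members had a ratio above 0 after injury, where 12223 of all 18181 genes did. The members had a median of 1.85 and a range of 0.62 to 2.35, beside a median of 0.14 over all genes. The same number, 5 of 7, was at least 2-fold higher, where 6.9% of all genes were. They were Cd74 (2.35), H2-Aa (2.19), H2-Eb1 (2.0), H2-Ab1 (1.85) and H2-DMa (1.19), and below them came H2-DMb1 (0.66) and Ciita (0.62). With median-of-ratios scaling or quantile normalization, which take out the general shift between the adult libraries, H2-DMa was at 0.97 and 0.83. Over all genes, the share at least 2-fold higher in adult injury was 11.05% as TPM (FPKM rescaled to 1 common sum), 4.76% with median-of-ratios scaling and 3.99% with quantile normalization, and in young injury 5.35%, 4.52% and 4.07%. With a pseudocount of 0.1 FPKM in place of 1, Ciita had ratios of 1.03 in young and 1.86 in adult cartilage.

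The ratios of young and adult cartilage lay close together for most members. The adult ratio minus the young ratio was −0.04 for H2-Aa, 0.14 for H2-Ab1, −0.10 for H2-Eb1, 0.27 for Ciita, 0.09 for H2-DMa and −0.23 for H2-DMb1. Cd74 differed most, by 0.98. The median difference of the 7 genes was 0.09, where all genes had 0.12. Median-of-ratios scaling gave −0.15 and quantile normalization −0.16. No order of the ages can thus be read from the injury ratios of the members. The level did differ in one direction. All 7 members were higher in adult injured than in young injured cartilage, where 7383 of all 18181 genes were. The 7 were also higher on the TPM scale and after both other scalings. The log2 ratios were 1.26 for H2-Ab1, 0.86 for Cd74, 0.81 for H2-Aa, 0.80 for H2-Eb1, 0.70 for H2-DMb1, 0.37 for H2-DMa and 0.16 for Ciita, with a median of 0.80 beside −0.04 over all genes. Only H2-Ab1, at 2.43 times the young level, passed 2-fold, where 1.8% of all genes did, and 2 members did on the TPM scale and with quantile normalization, where 3.44% and 2.24% of all genes did.

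Adult and young sham cartilage were compared to see how far this difference in level was present without injury. H2-Ab1 (1.13), H2-DMb1 (0.93), H2-Eb1 (0.90), H2-Aa (0.85) and H2-DMa (0.28) were higher in adult sham, and H2-Ab1 was the 1 of 7 that passed 2-fold, where 2.66% of all genes did. The count was 4 with median-of-ratios scaling and with quantile normalization, where 5.35% and 5.04% of all genes passed, and 0 with a pseudocount of 5 FPKM. Cd74 (−0.12) and Ciita (−0.11) were slightly lower, but Cd74 was at 0.26 after median-of-ratios scaling and 0.13 after quantile normalization, and Ciita at 0.00 after quantile normalization. The median of the 7 genes was 0.85, beside −0.15 over all genes. The adult sham library is shared by this comparison and by that of adult injury. For the A and E chains the adult to young difference was similar in sham and in injured cartilage, with 0.85 and 0.81 for H2-Aa, 1.13 and 1.26 for H2-Ab1, and 0.90 and 0.80 for H2-Eb1.

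Class II genes are made by several immune cells, so markers of those cells were read in the same libraries. In RNA of whole tissue, fewer cells of a type and less RNA per cell cannot be told apart. The labels call the cells chondrocytes, and the chondrocyte genes Col2a1 (3173 to 9349 FPKM) and Acan (214 to 559 FPKM) were abundant in every library. Markers of macrophages were present too. Cd68, a lysosomal protein of macrophages, was at 10.3 and 102 FPKM in young and 22.9 and 104 FPKM in adult cartilage. Adgre1, which encodes F4/80, was at 1.33, 30.3, 3.22 and 16.8 FPKM. Of 16 macrophage markers 14 were at least 2-fold higher after injury at each age, where 4.57% (young) and 6.9% (adult) of all genes were. The median log2 ratios of the 16 markers were 3.12 and 2.11. Their summed level was 215 and 1998 FPKM in young and 327 and 1716 FPKM in adult cartilage, most of it Lyz2.

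The macrophage markers thus had larger injury ratios than the class II genes in young cartilage. The summed FPKM of the 7 members was 66.7 and 221 in young and 102 and 416 in adult cartilage. After injury it was 3.31 times the sham level in young and 4.07 times in adult cartilage, whereas the macrophage sum was 9.28 and 5.25 times the sham level. The members stood at 0.310 and 0.110 of the macrophage sum in young and 0.312 and 0.242 in adult cartilage. The young injured library was the lowest, and without Lyz2 the ratios were 0.904, 0.303, 0.711 and 0.665. Against Cd68 alone, at almost equal Cd68 in the 2 injured libraries, H2-Ab1 was at 0.391 in young injured and 0.929 in adult injured cartilage, H2-Aa at 0.526 and 0.906, and Cd74 at 0.748 and 1.33. The part of macrophage number or state in these levels was not tested.

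Markers of other immune cells were read as well. Of 10 dendritic cell markers 2 in young and 3 in adult cartilage passed 2-fold after injury, where 4.57% and 6.9% of all genes did. On the TPM scale 5 did in adult cartilage, where 11.05% of all genes did. Itgax was at 0.326 and 2.67 FPKM in young and 0.217 and 2.66 FPKM in adult cartilage, and Flt3 at 0.0993, 0.496, 0.0707 and 0.604 FPKM. Clec10a, a lectin of dendritic cells and macrophages, was at 0.297, 2.88, 0.281 and 3.33 FPKM. The dendritic cell sum was 8.53, 15.8, 6.03 and 14.5 FPKM, and the median log2 ratio after injury 0.49 in young and 0.59 in adult cartilage. The sum of all 10 was 1.85 times the sham level after injury in young and 2.41 times in adult cartilage, below the folds of the class II sum. Most of the sham sum was Zbtb46, which was lower after injury, at 5.88, 5.37, 4.28 and 3.17 FPKM. The other 9 markers summed to 2.66, 10.5, 1.75 and 11.4 FPKM. Without Zbtb46 the sum was 3.94 times the sham level after injury in young and 6.48 times in adult cartilage. Only these folds without Zbtb46 were above those of the class II sum. The part of dendritic cells in the class II levels was not tested. Cells that make Itgax also include macrophages. Cd79a, a component of the B cell receptor, was at 16.9, 23.8, 3.30 and 6.68 FPKM. The sum of 10 B cell markers was 60.9, 84.1, 12.5 and 25.7 FPKM, lower in each adult library than in the young library of the same surgery. Fcer2a, at 1.15 FPKM in young injured and 3.19 in adult injured cartilage, went the other way. The part of B cells in the class II levels was not tested. The B precursor sum, over 5 genes, was 13.5, 19.5, 2.71 and 2.37 FPKM. H2-Ab1 was at 0.676 of Cd79a in young sham and at 14.5 times Cd79a in adult injured cartilage. The sum of 9 T and NK cell markers was 2.45, 4.13, 1.78 and 7.59 FPKM, with injury folds of 1.69 (young) and 4.25 (adult), beside 3.31 and 4.07 for the class II sum. Nkg7, a granule protein of cytotoxic lymphocytes, was at 0.866, 1.43, 0.718 and 3.80 FPKM. Cd3e, a defining T cell gene, stayed at or below 0.176 FPKM and was listed at 0 in adult sham.

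Among markers of further cell types, all 6 endothelial genes were at least 2-fold higher after injury at both ages. Of all genes, 4.57% (young) and 6.9% (adult) were. After quantile normalization only 3 of the 6 were in adult cartilage, where 3.99% of all genes were. Pecam1 was at 3.52, 17.8, 4.98 and 11.4 FPKM, and the endothelial sum was 15.8, 78.0, 17.7 and 64.9 FPKM. The neutrophil sum, over 8 genes, was 1062, 2194, 1494 and 1735 FPKM. The summed level of 8 chondrocyte genes was 14084 and 12735 FPKM in young and 11057 and 9755 FPKM in adult cartilage. This sum is led by few genes, such as Comp, at 7203 and 4611 FPKM in adult cartilage. In adult injury 6 of the 8 had a ratio above 0, where 12223 of all 18181 genes did. The median was 0.34, and 3 of the 8 were at least 2-fold higher, where 6.9% of all genes were. With median-of-ratios scaling 4 were above 0 and 2 at least 2-fold higher (4.76% of all genes), with a median of 0.06. With quantile normalization 5 were above 0 and 2 at least 2-fold higher (3.99%), with a median of 0.35. In adult against young sham 7 of 8 were below 0, where 65.6% of all genes were. The median of the 8 was −1.71, beside −0.15 over all genes. Their part in the class II levels was not tested.

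**Figure D3:**
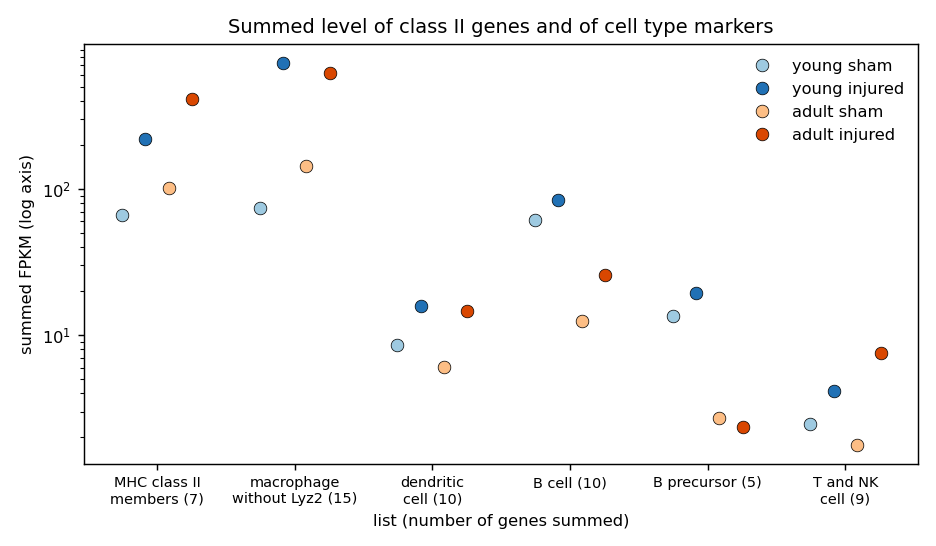
Summed FPKM (log axis) of the 7 members and of cell type markers in the 4 libraries, each point 1 pooled library. The class II sum is highest in adult injured cartilage (416 FPKM), the macrophage sum without Lyz2 is higher in young injured (727 FPKM) than in adult injured cartilage (626 FPKM), and the B cell sum is lower in both adult libraries.

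The remaining genes of the pathway were counted with the same threshold. The background share of genes at least 2-fold lower was 1.27% in young and 1.46% in adult injury, and no gene of the 6 pathway lists below was that much lower. Of the other class II chains, 5 were in the table, and none was 2-fold higher at either age, although 2 were in adult cartilage on the TPM scale, where 11.05% of all genes were. H2-Oa and H2-Ob, the chains of the DO molecule that restrains DM and is typical of B cells, had ratios of 0.24 and 0.36 in young and 0.71 and 0.58 in adult cartilage. H2-Ob was at 1.29, 1.93, 0.505 and 1.25 FPKM, higher in each young library than in the adult library of the same surgery. The members with the same pair of cores, H2-Aa, H2-Eb1 and H2-DMb1, were higher in each adult library. H2-Eb2 was at or below 0.161 FPKM, and the H2-DMb2 ratios were 0.73 and 0.24.

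Among 7 factors that sit with Ciita on class II promoters, none was 2-fold different after injury at either age. The RFX subunit genes Rfx5 (3.93 to 7.50 FPKM), Rfxap (6.33 to 11.3) and Rfxank (8.33 to 11.5) and the NF-Y subunit genes Nfya, Nfyb and Nfyc (6.79 to 39.1 FPKM) were present in every library. Their median ratio, with Creb1, was −0.16 in young and 0.19 in adult cartilage, beside 0.00 and 0.14 over all genes. After median-of-ratios scaling and quantile normalization the adult injury median was −0.06 and −0.08. In adult against young sham their median was −0.64 and all 7 ratios were below 0, where 65.6% of all genes were. With median-of-ratios scaling and with quantile normalization the median was −0.31 and −0.25, and 6 ratios were below 0, where 50.2% and 47.8% of all genes were. The 8 genes from IFN-γ to Ciita had a median ratio after injury of 0.37 in young and 0.54 in adult cartilage. The receptor chain gene Ifngr2 was at 14.4, 18.4, 7.30 and 18.7 FPKM, ratios of 0.34 and 1.25. Ifngr1, the other receptor chain, had ratios of 0.57 and 0.59, and Irf1 0.89 and 0.46. Ifng itself was listed at 0 in 3 libraries and at 0.0322 FPKM in adult injured cartilage.

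Proteases and reductases of the endosome prepare peptides and remove Cd74. Of 6 such genes 3 in young and 4 in adult cartilage passed 2-fold after injury, where 4.57% and 6.9% of all genes did. Ctss, cathepsin S, which makes the last cut of the invariant chain, was at 9.43 and 258 FPKM in young and 14.1 and 194 FPKM in adult cartilage, ratios of 4.63 and 3.69. Lgmn, legumain, had ratios of 2.55 and 1.43, Ctsb 1.5 and 1.16, and Ctsl 0.86 and 1.71. Ifi30, a thiol reductase of antigen processing, was between 167 and 188 FPKM, with ratios of −0.15 at both ages. The median adult against young injured ratio of the 6 genes was −0.08, and between 0.01 and 0.12 under the other scalings. Of 6 genes of class II turnover and of costimulation, 4 in young and 1 in adult cartilage passed 2-fold, beside 4.57% and 6.9% of all genes. Under other scalings 2 to 4 did in young and 0 to 4 in adult cartilage. The shares of all genes were then 4.07% to 5.35% and 3.99% to 11.05%. March1, a ubiquitin ligase that removes class II and Cd86 from the surface, was at 0.352, 2.12, 0.214 and 1.09 FPKM, ratios of 1.21 and 0.78. The ratios of the costimulatory genes were 1.07 and 0.98 for Cd80, 1.01 and 0.92 for Cd86, and 1.26 and 1.04 for Cd40. Cd83 had ratios of 0.65 and 0.60, and March8 −0.14 and −0.12.

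MHC class I genes, which present peptides to CD8+ T cells, were read in the same way. Of 9 such genes 6 in young and 2 in adult cartilage passed 2-fold after injury, beside 4.57% and 6.9% of all genes. Under other scalings 1 to 5 did in adult cartilage, beside 3.99% to 11.05% of all genes. The median ratios of the 9 genes were 1.14 and 0.90. H2-K1 was at 45.8, 140, 97.4 and 183 FPKM, ratios of 1.59 and 0.90. H2-D1 had ratios of 1.59 and 0.35, B2m 1.14 and 0.77, Psmb8 2.04 and 1.36, Psmb9 1.76 and 0.96, and Nlrc5, the class I counterpart of Ciita, 1.11 and 1.05. In the injured libraries the class I list had a median log2 ratio of −0.02 for adult against young, where the class II members had 0.80. On the TPM scale these medians were 0.16 and 0.99. In the sham libraries class I was higher in adult too, with a median of 0.67 beside 0.85 for the class II members. There 8 of the 9 class I genes were above 0, where 5406 of all 18181 genes were. H2-K1 and H2-D1 share 22.8% and 26.7% of their sequence words with other genes.

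**Figure D4:**
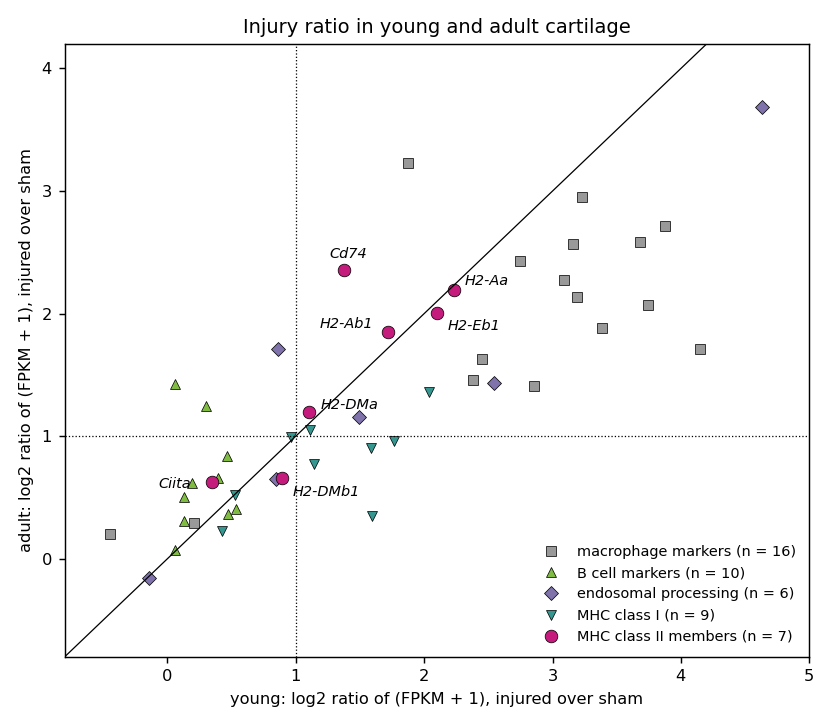
Log2 ratio of (FPKM + 1), injured over sham, in young (x axis) and adult cartilage (y axis) for 5 lists of genes, each point 1 gene; the solid line marks equal ratios and dotted lines 2-fold. Most class II members lie near the line of equal ratios, Cd74 lies above it, and most macrophage markers lie below it.

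The genes whose pattern over the 4 libraries was most like the mean of the members were sought among the 8055 genes whose mean reached 5 FPKM. Likeness was the Euclidean distance between log2(FPKM + 1) values centred on each gene's own mean, over 4 libraries only. The nearest was Clec12a, an inhibitory lectin receptor of myeloid cells, at a distance of 0.13 and at 2.81, 9.56, 4.27 and 14.6 FPKM. Sema7a (0.20), Nrp2 (0.29), Cxcl16 (0.31), Ace (0.31) and Layn (0.32) followed. Single members were farther from their own mean than these genes were, from 0.45 for H2-DMa to 1.16 for Ciita.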

How the data were processed

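Values are gene-level FPKM as the authors deposited them, on mm10, from stranded paired-end libraries of poly-A selected RNA. The submitters' processing notes name HISAT2 2.1.0, StringTie 1.3.4d, STAR and SAMtools without their roles, and filters and strand settings are not given in the sources used here. FPKM are relative to transcript length and to the library's mapped fragments. They summed to between 469939 and 533468 per library, and between 7457 and 8390 genes were listed at 0. Fragment counts were not used here. Products of FPKM and transcript length were near a whole multiple of 1 step, within 0.1 of it, for only 24.3% to 35.3% of low genes, so counts were not recovered and no counting interval is given.

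From these values log2 ratios of FPKM + 1 were calculated for 4 comparisons over all genes above 0 in 1 or more libraries. A gene counted at 2-fold. With 1 library per group no test was made, and lists are described by counts and medians. The members and lists were chosen with earlier results of these data known. Named are the members, genes of the other pathway lists that pass 2-fold after injury, defining markers and the 6 genes of nearest pattern. Any further gene was named with its values known. Some genes of these lists are not reported here by name. March1 and March8, whose symbols the table holds as dates, were taken by Entrez identifier, and H2-Ea and Trbc1 found no row. Alternatives were pseudocounts of 0.1 and 5 FPKM, FPKM rescaled to a common sum (TPM), median-of-ratios scaling, quantile normalization, a filter of 1 FPKM, and thresholds of 1.5-fold and 3-fold. Promoter windows and positions came from RefSeq tables of GRCm38.p6, and shared 31-base words from GENCODE M21 transcripts. Lists other than the members were recounted under each scaling, as were opposite injury ratios, and the dendritic cell sum was taken without Zbtb46, alternatives chosen after seeing the data. The calculations were tested on simulated data. Python 3.11.15, numpy 2.4.6, pandas 2.3.3 and matplotlib 3.10.9 were used.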

Additional observations from a re-analysis of the deposited data

Results flagged for a closer look

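Among all genes of the pathway and marker lists, 14 had injury ratios of opposite sign at the 2 ages, leaving out genes with a ratio that rounds to 0.00 at either age. No member of the class II list was among them. Of the pathway genes, the log2 ratios in adult and young cartilage were 0.41 and −0.39 for the RFX subunit gene Rfxap, 0.39 and −0.16 for Creb1, and 0.66 and −0.15 for Jak2. Of the chondrocyte genes, they were 1.95 and −0.47 for Col9a1, 1.02 and −0.37 for Col11a1, 0.44 and −0.28 for Hapln1, 0.24 and −0.24 for Col2a1, 0.0103 and −0.71 for Sox9, and −0.64 and 0.58 for Comp. Of the other markers, they were 0.20 and −0.45 for Mertk, 0.24 and −0.18 for Mpo, −0.0352 and 0.24 for Elane, −0.12 and 0.02 for Vpreb1, and −0.21 and 0.76 for Vpreb3. Over all 18181 genes tested, 38.6% had opposite signs. That share leaves out no gene with a ratio near 0, so the 14 were not counted by the same rule. Of the 14, 12 kept opposite signs on the TPM scale (not Vpreb1 and Elane), 10 with median-of-ratios scaling (not Mertk, Mpo, Col2a1 and Sox9) and 11 with quantile normalization (not Mertk, Vpreb1 and Sox9). The differences between the ages were not tested, since each rests on 1 library per group.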

How the results depend on the processing

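The median ratio of the members kept its sign in all 4 comparisons under each pseudocount, scaling and filter. It ranged from 1.27 to 1.55 in young and from 1.59 to 1.97 in adult injury. The number of members at least 2-fold higher was 3 in young injury with a threshold of 3-fold, which 2.02% of all genes passed. It was 6 there with a pseudocount of 0.1 FPKM (9.99%), 4 with 5 FPKM (1.89%) and 6 at 1.5-fold (9.50%). In adult injury it was 6 on the TPM scale (11.05%), 6 with a pseudocount of 0.1 FPKM (15.9%) and 7 at 1.5-fold (17.9%). It was 4 after median-of-ratios scaling (4.76%), after quantile normalization (3.99%), with a pseudocount of 5 FPKM (2.39%) and at 3-fold (2.43%). In adult against young sham it was 2 with a pseudocount of 0.1 FPKM (5.72% of all genes), 0 with 5 FPKM (1.24%), 4 after median-of-ratios scaling (5.35%), 4 after quantile normalization (5.04%), 4 at 1.5-fold (6.54%) and 0 at 3-fold (1.01%). In adult against young injured it was 2 on the TPM scale (3.44%), 2 after quantile normalization (2.24%), 5 at 1.5-fold (5.51%) and 0 at 3-fold (0.528%). The median difference between the injury ratios of the ages was −0.15 after median-of-ratios scaling and −0.16 after quantile normalization, and the cause was not tested. Without Lyz2 the class II to macrophage ratio was 0.904 (sham) and 0.303 (injured) in young and 0.711 and 0.665 in adult cartilage. The filter of 1 FPKM leaves out Ciita. No member shares 50% or more of its words with another gene, so that alternative gave no value. No library could be left out, since each group is 1 library. No paired analysis was possible because each group has 1 library.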
